A study of Mus musculus with 28 samples.

Results

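Ribosome footprints are the short stretches of mRNA that a translating ribosome shields from a nuclease, and their density over a coding sequence reports how many ribosomes were on it. In the dendritic cells described here, footprint levels were deposited for 6250 gene rows and RNA levels for 3147 gene rows. The rows described below are the 3308 footprint rows (52.9% of 6250) for which none of the gene names is a name in the RNA table. The other 2942 footprint rows have an RNA row. Membership rests on names alone and uses no measured value, and the sources used here do not say how the rows of either table were selected. Of the 3308 rows, 437 (13.2%) carry several names joined by a semicolon, and they are printed as given. Matching without regard to case linked 0 further rows to the RNA table, and matching through gene synonyms linked 1, Lsmd1. A further 4 of the rows carry names in the form of calendar dates and are not described by gene.

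The cells were dendritic cells grown from the bone marrow of female C57BL/6J mice aged 6 to 8 weeks, with the growth factor GM-CSF at 20 ng/ml. They were left unstimulated and were treated briefly with cycloheximide at 100 µg/ml, which stops ribosomes on the mRNA, before RNase I digestion and removal of ribosomal RNA. The footprint data form 1 group of 2 libraries, and no stimulated or otherwise altered cells were footprinted here, so the comparison below is between 2 kinds of row within the same libraries and carries no test. The labels do not say whether the 2 libraries came from separate cultures or mice, so their spread may be technical. The study's 26 RNA libraries, from cells treated with lipopolysaccharide (LPS) or mock-treated over time, were made from polyadenylated RNA, and here they supply gene names only.

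Dendritic cells take up material at body surfaces, cut it into peptides and present it to T cells on class II molecules of the major histocompatibility complex. In the resting state they already make chemokines, chemokine receptors and pathogen receptors, while many inflammatory cytokines are known to be made in quantity only after a microbial signal such as LPS. Cultures grown with GM-CSF are also known to hold macrophage-like cells and granulocytes.

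Of 13 dendritic cell markers, 11 were in the footprint table. They summed to 17758 TPM in library 1 and 16297 TPM in library 2, led by the class II invariant chain Cd74 at 9669 and 8363 TPM. The integrin Itgax had 930 and 944 TPM, while Flt3 and Batf3 were not among the listed rows. Cd74 and Itgax have an RNA row. The 7 markers without one had a median of 28.3 TPM, from H2-Eb1 at 1823 TPM to Zbtb46 at 8.67 TPM (means of the 2 libraries). TPM here is a level per coding length with a total of 1000000 per library, so levels can be compared between genes. Markers of other cell types were listed too. The 10 listed of 16 neutrophil markers summed to 5913 and 4560 TPM in libraries 1 and 2, mostly S100a8 and S100a9. The 12 listed of 14 macrophage markers summed to 2878 and 3146 TPM, and the 6 listed of 18 mast cell, basophil and eosinophil markers to 3041 and 4819 TPM. For B cells, T or NK cells, and fibroblasts, only 1 marker each was listed, of 13, 17 and 12. For fibroblasts it was Acta2, at 1033 and 753 TPM. Levels are those of the whole culture, in which fewer cells of a type and less RNA per cell cannot be told apart, and the part of the other cell types in the levels below was not tested.

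Many of the highest rows without an RNA row belong to families of nearly identical coding sequences, and the first bases of their coding sequences are shown for that reason. Each line gives bases 1 to 90 of a coding sequence, 5′ to 3′, from the GENCODE M21 transcripts (mouse build GRCm38), and capitals mark the positions at which the sequences of a set differ. Lyz1 and Lyz2, on chromosome 10, encode the antibacterial enzyme lysozyme, and 7 of these 90 positions differ.
Lyz1: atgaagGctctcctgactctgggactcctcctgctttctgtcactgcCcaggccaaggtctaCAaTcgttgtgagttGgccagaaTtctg
Lyz2: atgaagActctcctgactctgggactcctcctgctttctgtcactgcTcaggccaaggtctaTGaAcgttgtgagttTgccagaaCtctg

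Actb (chromosome 5) and Actg1 (chromosome 11) encode the cytoplasmic actins of the cell skeleton, which differ at 16 of the 90 positions.
Actb: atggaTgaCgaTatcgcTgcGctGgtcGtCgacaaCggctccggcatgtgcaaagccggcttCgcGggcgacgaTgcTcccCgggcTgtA
Actg1: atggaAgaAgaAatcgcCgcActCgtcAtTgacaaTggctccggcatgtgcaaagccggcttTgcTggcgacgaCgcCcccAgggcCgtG

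The histone H4 genes of chromosome 13 encode one of the core proteins on which DNA is wound. Across the 4 highest H4 rows, 19 of the 90 positions differ.
Hist1h4k: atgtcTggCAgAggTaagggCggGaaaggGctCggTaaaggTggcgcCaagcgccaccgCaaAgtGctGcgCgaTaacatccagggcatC
Hist1h4h: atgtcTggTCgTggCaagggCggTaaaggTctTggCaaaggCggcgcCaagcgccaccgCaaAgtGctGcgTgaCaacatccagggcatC
Hist1h4a: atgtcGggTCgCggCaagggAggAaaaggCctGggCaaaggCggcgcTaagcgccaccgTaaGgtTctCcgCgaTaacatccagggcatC
Hist1h4c: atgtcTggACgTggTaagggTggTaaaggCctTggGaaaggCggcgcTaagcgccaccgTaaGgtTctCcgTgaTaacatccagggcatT

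The Bcl2a1 genes of chromosome 9 encode a survival protein of the Bcl2 family that blocks apoptosis, and 6 of the 90 positions differ.
Bcl2a1d: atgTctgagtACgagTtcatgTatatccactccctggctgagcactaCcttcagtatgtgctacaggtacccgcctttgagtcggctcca
Bcl2a1b: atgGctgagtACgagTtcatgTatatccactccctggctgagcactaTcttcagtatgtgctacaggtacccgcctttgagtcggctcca
Bcl2a1a: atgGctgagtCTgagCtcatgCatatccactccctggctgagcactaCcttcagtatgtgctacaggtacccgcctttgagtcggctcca

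The rows without an RNA row had lower footprint levels than those with one, although they include some of the most heavily footprinted genes. Their median level was 19.0 TPM in library 1 and 20.1 TPM in library 2, against 43.1 and 44.8 TPM for rows with an RNA row. On the log2(TPM + 1) scale the medians were 4.36 ± 0.05 for rows without and 5.49 ± 0.04 for rows with an RNA row (SD, n = 2 libraries). The difference of medians, rows without minus rows with an RNA row, was -1.14 in library 1 and -1.12 in library 2. Both libraries thus gave the same direction and nearly the same size. The 2 kinds of row overlapped widely, and 26.6% of the rows without an RNA row lay above the median of those with one. In library 1 the middle 90% of the rows without an RNA row spanned 4.41 to 281 TPM, and in library 2 it spanned 4.87 to 301 TPM.

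At least 10 TPM in both libraries was reached by 2425 of 3308 rows without an RNA row (73.3%), against 2762 of 2942 rows with one (93.9%) and 83.0% of all rows. At least 100 TPM was reached by 384 rows without an RNA row (11.6%), against 782 rows with one (26.6%) and 18.7% of all rows. At least 1000 TPM was reached by 52 rows without (1.57%) and 72 rows with an RNA row (2.45%), beside 1.98% of all rows. At each of these 3 thresholds the share was lower among the rows without an RNA row. Cut into 10 equal bins of level, the lowest bin of the table consisted to 87.2% of rows without an RNA row (545 of 625), and the highest to 32.8% (205 of 625).

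**Figure D1:**
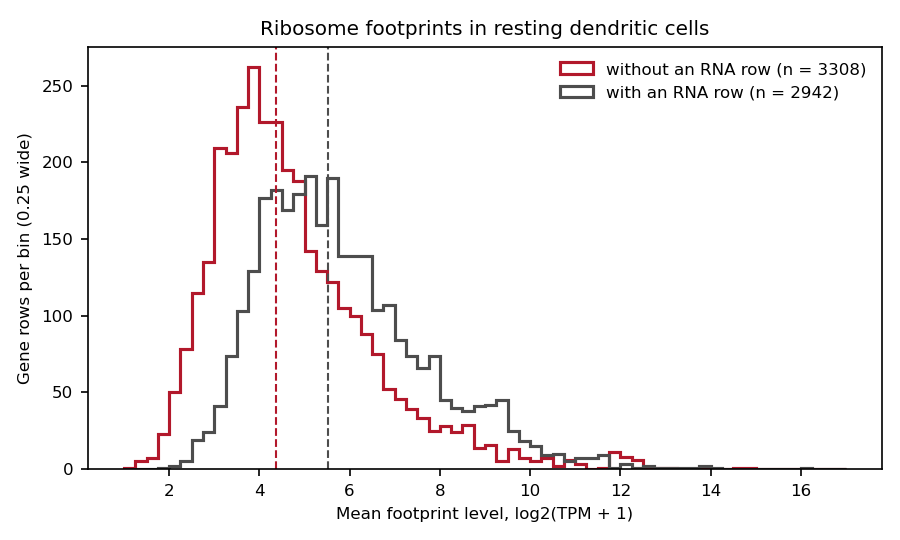
Distribution of the mean footprint level, log2(TPM + 1) of the mean of the 2 libraries, for the 3308 rows without an RNA row (red) and the 2942 rows with an RNA row (grey), as gene rows per bin. Dashed lines mark the medians, near 4.36 for rows without and 5.49 for rows with an RNA row.

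Together the rows without an RNA row held 39.8% of the summed footprint level in library 1 and 39.0% in library 2. A small number of rows carried most of that. The 10 highest held 11.04% and 9.99% of libraries 1 and 2, the 25 highest 17.8% and 16.2%, and the 100 highest 26.6% and 25.1%. The 100 highest therefore made up 66.8% and 64.4% of everything that the 3308 rows held.

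The highest row was Lyz1, with 27271 TPM in library 1 and 27974 TPM in library 2. Its near copy Lyz2, which has an RNA row, stood at 70959 and 73970 TPM. Their coding sequences differed at 22 of 444 bases. Of the 28-base windows of the Lyz1 coding sequence, about the length of a footprint, 41.7% also occur in Lyz2, and how the authors divided reads between such copies is not given in the sources used here, so the levels of both are uncertain. Actb followed with 27093 and 25584 TPM and Actg1 with 9917 and 9170 TPM. The actins were 88.6% identical over 1125 bases, but 10.7% of Actb windows occur in Actg1, so most windows were particular to 1 of the 2 genes. These 3 rows kept their order in both libraries.

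Histones, the proteins that package DNA, made up most of the next ranks. The table held 43 histone rows, of which 30 (69.8%) had no RNA row, beside 52.9% of all rows. These 30 had a median of 4105 TPM, against 855 TPM for the 13 histone rows with an RNA row. On the log2(TPM + 1) scale their median was 12.00, and 10.21 once the rows that share over 50% of their coding windows with another row were left out, an alternative chosen after seeing the data. They held 12.3% of library 1 and 11.05% of library 2, and all 30 exceeded 100 TPM in both libraries. Hist1h2ap, of the H2A class, was the highest at 7722 and 7416 TPM. Among H4 rows, Hist1h4k stood at 6347 and 4991 TPM, Hist1h4h at 6303 and 4927 TPM, Hist1h4a at 6265 and 4913 TPM and Hist1h4c at 6073 and 4592 TPM. The 4 H4 rows lay closer to each other within a library than to themselves across libraries, and each was higher in library 1. The H3 rows Hist1h3h, Hist1h3i, Hist1h3f, Hist1h3c and Hist1h3g lay between 3781 and 4309 TPM in the 2 libraries, and the variant histone row H3f3a;H3f3b had 1881 and 2144 TPM. The lowest of the 30 was the linker histone Hist1h1a, at 172 and 197 TPM. Most replication-dependent histone mRNAs are known to end in a stem-loop instead of a poly(A) tail.

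Of the 30 histone rows, 23 shared over 50% of their 28-base windows with another row, as did 19 of the 25 highest rows without an RNA row. Over all 3276 rows without an RNA row that have a sequence the count was 65 (1.98%), against 31 of 2926 rows with an RNA row (1.06%) and 1.55% of all rows. Pairs of the 4 H4 genes printed above were 93.9% to 96.1% identical over 309 bases. The 65 rows held 12.3% of library 1 and 11.2% of library 2. The level of any one histone gene is therefore uncertain, since reads from one copy can align to another.

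**Figure D2:**
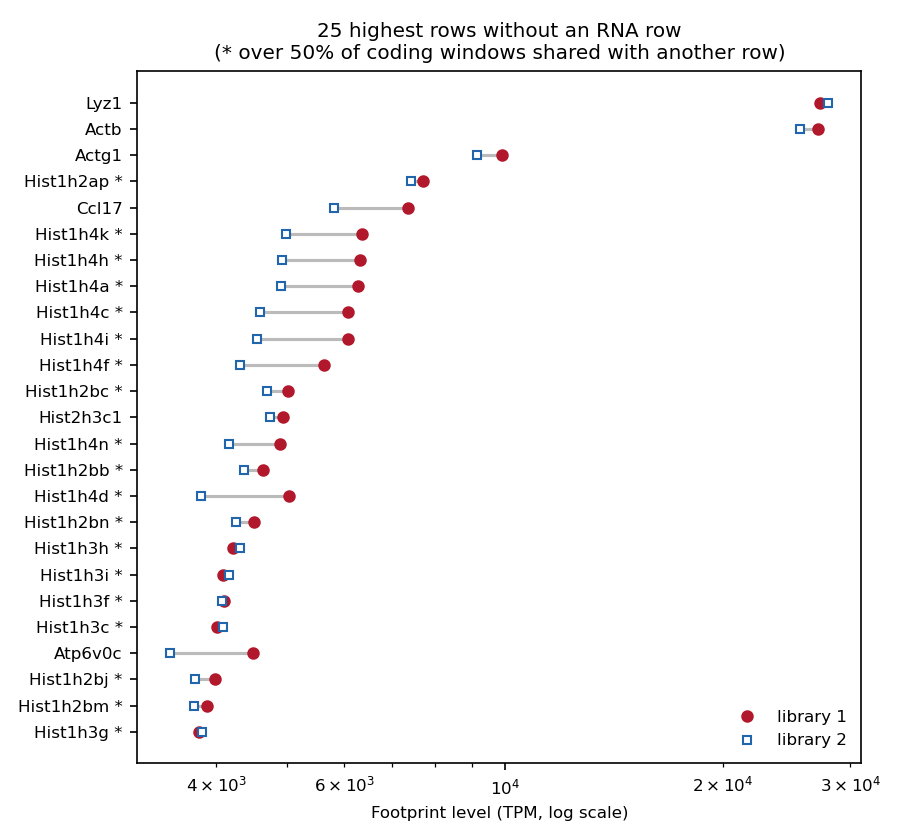
Footprint level in TPM (log scale) of the 25 highest rows without an RNA row in library 1 (red circles) and library 2 (open blue squares). Asterisks mark the 19 rows that share over 50% of their 28-base coding windows with another row; Lyz1 and Actb stand above 25583 TPM and the histone H4 rows are each higher in library 1.

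Pseudogenes, copies of genes that are annotated as having lost their coding function, gave a further group of this kind. GENCODE annotates 22 of the footprint rows as pseudogenes, where a row of several names was given the type of 1 of them. Of these, 20 had no RNA row, beside 52.9% of all rows, with a median of 261 TPM and a range of 7.08 to 1017 TPM. The 20 include the row that lists H2-T10, H2-T22, H2-T23 and H2-T9, at 593 and 558 TPM, which shared 12.8% of its windows. Of the 20, 11 shared over 50% of their windows with another row, and for 13 the closest row does have an RNA row. Gm13611 had 430 and 392 TPM and shared 77.3% of its windows with Rpl36, a ribosomal protein gene at 678 and 562 TPM. Ftl2, at 342 and 415 TPM, shared 70.3% with the iron-storage gene Ftl1, at 607 and 740 TPM. Gm10136, at 379 and 324 TPM, shared 70.6% with Rpl26, at 646 and 577 TPM. Hmg1l1, at 236 and 281 TPM, shared 65.7% with the chromatin protein gene Hmgb1, at 503 and 590 TPM. Each of these 4 stood below its closest relative in both libraries. Reads from the relative cannot be told apart from reads of the copy in the shared windows. Clec7a, which encodes the fungal sugar receptor Dectin-1 and which the same annotation lists as a polymorphic pseudogene, shared 0% of its windows and is described with the receptors.

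Outside these families, the highest rows with at most 10% shared windows were mostly genes of myeloid cell function. This ranking was added after the values were seen. Ccl17, a chemokine that draws T cells to dendritic cells, led with 7357 and 5820 TPM (6588 ± 1087, SD, n = 2). Atp6v0c, a subunit of the pump that acidifies lysosomes, had 4492 and 3455 TPM, and the surface glycoprotein Cd52 had 3009 and 3635 TPM. H2-Eb1, a class II chain that presents peptides, had 1915 and 1732 TPM and is a dendritic cell marker. Rows of the adaptor Tyrobp (924 and 908 TPM), of the lysosomal protein Laptm5, listed with AK171116 (1717 and 1707 TPM), of the inhibitory receptor Lilrb4, listed with Gp49a (1801 and 2020 TPM), and of the tetraspanin Cd53 (1257 and 1323 TPM) repeated closely. The integrin Itgam (822 and 752 TPM), the extracellular matrix protein Fn1 (1459 and 1758 TPM) and the pore-forming Mpeg1 (979 and 1071 TPM) were also high. 1600029D21Rik, a row with a clone name, had 2394 and 2130 TPM.

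Chemokines, the secreted proteins that guide migrating leukocytes, formed one of the highest role groups. Of 15 listed chemokine rows, 12 (80.0%) had no RNA row, beside 52.9% of all rows. The 12 had a median of 174 TPM, against 461 TPM for the 3 with an RNA row. Of the 12, 11 lay above the median of all rows without an RNA row. Coding length limits what this count and the group's rank can show. Ccl17, Ccl22 and Ccl9 have coding sequences of 309, 276 and 366 bases. At 300 bases, 257 reads summed over both libraries, below which few rows lie, correspond to 46.7 TPM. Rows this short could hardly be in the table at a lower level. After Ccl17 came Ccl9 at 3104 and 4169 TPM and Ccl22, which also draws T cells, at 672 and 624 TPM. Chemokines known to be induced by LPS already had footprints in these unstimulated cells. Cxcl3 had 386 and 269 TPM, Ccl4 (listed with ScyA4) 260 and 383 TPM, Ccl3 (listed with AK137525) 174 and 254 TPM and Cxcl2 159 and 109 TPM. Cxcl2 and Cxcl3, which recruit neutrophils, were higher in library 1, while Ccl3 and Ccl4, which recruit monocytes and T cells, were higher in library 2. Ccl2, which recruits monocytes, had 107 and 127 TPM. The lowest of the 12, Cx3cl1, had 15.8 and 16.4 TPM.

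All 7 chemokine receptor rows of the table lacked an RNA row, beside 52.9% of all rows. Ccr2, the receptor for Ccl2, had 401 and 518 TPM, and Ccr1 had 337 and 385 TPM. Ccr7, which directs mature dendritic cells to lymph nodes, had 106 and 117 TPM, and Cxcr4 had 42.7 and 28.7 TPM. Ccr2 and Ccr1 lay above Ccr7 and Cxcr4 in both libraries, and the lowest Ccr2 value was above the highest Ccr1 value. Ccrl2, an atypical chemokine receptor, was lowest at 12.4 and 12.1 TPM.

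Cytokine rows were lower. Of 16 in the table, 9 (56.3%) had no RNA row, near the 52.9% of all rows. The 9 had a median of 37.5 TPM, against 236 TPM for the 7 with an RNA row. Spp1, the secreted glycoprotein osteopontin, was far above the rest at 2429 and 1816 TPM. The growth factor Igf1 had 82.8 and 99.5 TPM and Inhba, a subunit of activin, had 57.4 and 43.5 TPM. Tnf, a central inflammatory cytokine, had 44.0 and 35.1 TPM, above the median of all rows. Il12b, which encodes a subunit shared by the cytokines IL-12 and IL-23, had 4.91 TPM in library 1 and 27.8 TPM in library 2. Il6, Cxcl10, Cxcl1 and Ifnb1 were not among the rows analysed here. Cytokine receptor rows mostly lacked RNA rows, at 32 of 36 (88.9%), with a median of 29.8 TPM. Csf2rb, the signalling chain of the receptor for GM-CSF, with which these cells were grown, led with 295 and 287 TPM, and its relative Csf2rb2 had 216 and 215 TPM. Il2rg, the chain shared by several interleukin receptors, had 258 and 280 TPM. The lowest were Il12rb2 at 6.14 and 6.87 TPM and Lifr at 3.67 and 6.67 TPM.

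Of receptors that recognise microbes and their partners, 12 of 27 (44.4%) had no RNA row, beside 52.9% of all rows, and the 12 had a median of 37.3 TPM, against 94.1 TPM for the 15 with one. Clec7a had 500 and 664 TPM, and Unc93b1, which carries Toll-like receptors to endosomes, had 326 and 330 TPM. The inhibitory lectin Clec12a had 178 and 226 TPM and Clec4e, a receptor for mycobacterial glycolipid, 95.5 and 117 TPM. Tlr4, the receptor for LPS, had 33.5 and 43.7 TPM, while its adaptor Ticam1 had 5.93 and 6.89 TPM. Of the 12 rows, 10 were higher in library 2, as were 63.1% of all rows without an RNA row.

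Genes of the NF-kB pathway, which carries the signal of these receptors to the nucleus, had no RNA row in 17 of 31 cases (54.8%), near the share of all rows, and a median of 18.8 TPM. The inhibitor Nfkbia, which holds NF-kB in the cytoplasm, stood out at 258 and 239 TPM. The deubiquitinase Tnfaip3, another brake on the pathway, had 19.9 and 20.3 TPM and Tnip3 had 93.2 and 117 TPM. The kinase Chuk had 7.31 and 10.3 TPM and the adaptor Tab2 6.40 and 8.80 TPM, below the median of the rows without an RNA row.

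Immediate early genes are known to be transcribed within minutes of a signal without new protein synthesis. Of their 19 rows, 18 (94.7%) had no RNA row, beside 52.9% of all rows. The 18 had a median of 47.0 TPM, and 14 of them lay above the median of all rows without an RNA row. The transcription factors Klf6 (143 and 155 TPM), Atf3 (131 and 149 TPM) and Egr2 (110 and 117 TPM) were highest. Jun had 52.6 and 49.9 TPM and Myc 47.6 and 51.5 TPM. Egr1 had 11.9 and 16.1 TPM and the phosphatase Dusp1 13.5 and 11.8 TPM. Members of the same family therefore lay far apart, as Egr2 and Egr1 did in both libraries. Feedback inhibitors of signalling lacked an RNA row in 12 of 15 cases, led by Cish, an inhibitor of cytokine receptor signalling, at 175 and 169 TPM.

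Among transcription factors of myeloid cells, 17 of 28 (60.7%) had no RNA row, beside 52.9% of all rows. The 17 had a median of 35.9 TPM. Id2, which is needed for the development of some dendritic cells, had 777 and 758 TPM, and Bhlhe40 had 277 and 277 TPM. Irf8, also a factor of dendritic cell development, had 35.4 and 29.2 TPM, and Zbtb46, a marker of conventional dendritic cells, 8.62 and 8.72 TPM. The costimulatory ligands for T cells Cd86 and Cd80 had 24.9 and 31.8 TPM and 23.2 and 29.8 TPM, and the inhibitory ligand Pdcd1lg2 had 92.1 and 101 TPM. Together 15 of 20 costimulation and maturation rows lacked an RNA row. They had a median of 44.3 TPM, beside 68.7 TPM for the 5 with an RNA row.

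Secreted proteins of myeloid cells lacked an RNA row in 14 of 31 cases (45.2%), beside 52.9% of all rows. The 14 had a median of 170 TPM, against 632 TPM for the 17 with an RNA row. The chitinase-like protein Chi3l3 had 1555 and 2432 TPM. The complement chains C1qc (207 and 227 TPM) and C1qa (196 and 213 TPM), which are macrophage markers, and the protease Plau (229 and 211 TPM) were near each other. Mmp8, a neutrophil collagenase, had 170 and 149 TPM.

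Regulators of survival and the cell cycle followed. Of 18 rows for apoptosis 8 (44.4%) had no RNA row, beside 52.9% of all rows. The 8 had a median of 183 TPM, against 38.4 TPM for the 10 with an RNA row. The top 3 of the 8 were the Bcl2a1 genes printed above. Bcl2a1d had 1052 and 1447 TPM, Bcl2a1b 1051 and 1446 TPM and Bcl2a1a 911 and 1266 TPM, each higher in library 2. They were 97.9% to 98.8% identical over 516 bases, so they count as one source of reads and not as 3. The group's median rests on them: on the log2(TPM + 1) scale it was 7.31, 6.49 without rows that share over 50% of their windows, and 8.10 without rows of several names. The short-lived survival protein Mcl1 had 288 and 261 TPM. Of 42 cell cycle rows 36 (85.7%) had no RNA row, beside 52.9% of all rows. The 36 had a median of 33.1 TPM. Cdkn1a, the inhibitor p21 that halts the cycle, led with 455 and 269 TPM, followed by the cyclin Ccnd2 (listed with CYL2) with 174 and 158 TPM and by Ube2c, which acts at the end of mitosis, with 133 and 168 TPM. Of the 15 rows for the integrated stress response 13 (86.7%) had no RNA row, beside 52.9% of all rows. The 13 had a median of 15.1 TPM, below that of all rows without an RNA row. Xbp1, a factor of the response to unfolded protein, led them with 158 and 203 TPM.

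**Figure D3:**
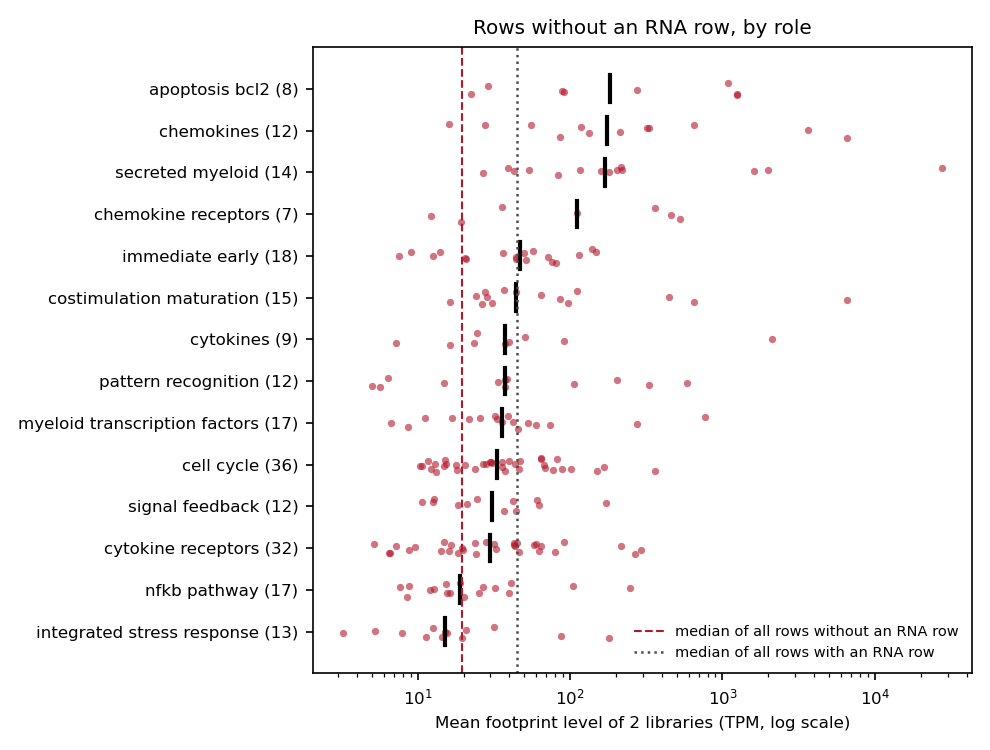
Mean footprint level of the 2 libraries, in TPM on a log scale, for rows without an RNA row in the 14 role groups of at least 5 such rows; points are genes, black bars the group medians and the number of rows is in parentheses. The red dashed line and the grey dotted line mark the medians of all rows without and with an RNA row, and the apoptosis, chemokine and secreted protein groups have medians near each other, at 183, 174 and 170 TPM.

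The share of rows without an RNA row also varied between gene families. It was highest for F-box, Klhl and related ubiquitin ligase adaptors, at 41 of 43 (95.3%), for receptors named Gpr and related receptors, at 24 of 26 (92.3%), and for zinc finger proteins named Zfp, at 42 of 46 (91.3%). It was lowest for the cytosolic ribosomal proteins, at 8 of 78 (10.3%). Mitochondrial ribosomal proteins, at 33 of 65 (50.8%), lay near the 52.9% of all rows. Solute carriers, which move nutrients and ions through membranes, lacked an RNA row in 85 of 102 cases (83.3%). The levels of these families differed as widely.

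The Zfp rows were among the lowest, with a median of 9.30 TPM, and Zfp706 was the highest of them at 114 and 173 TPM. Zbtb rows had a median of 10.3 TPM, F-box and Klhl rows of 12.9 TPM and RING finger and Trim ubiquitin ligases of 14.2 TPM. The solute carriers had a median of 18.1 TPM, led by the taurine transporter Slc6a6 at 266 and 264 TPM. The ion channels had a median of 16.5 TPM, with the proton channel Hvcn1 well above at 499 and 428 TPM. The Gpr and related receptors had a median of 29.2 TPM, with the formyl peptide receptor Fpr1 highest at 94.6 and 101 TPM. Transcription factors of the Fox, Hox, Sox, Klf, E2f, Tcf, nuclear receptor, Gata, Ets and other named families lacked an RNA row in 36 of 42 cases and had a median of 19.1 TPM. Rows named Tmem or Fam with a number did so in 93 of 117 cases, with a median of 31.2 TPM, and Tmem50a was the highest at 412 and 360 TPM. Rows with predicted-gene names (Gm) lacked an RNA row in 41 of 52 cases and had a median of 32.5 TPM, 5.07 on the log2(TPM + 1) scale and 6.47 without rows of several names, with 16 of the 41 sharing over 50% of their windows with another row. Rows with RIKEN clone names did so in 134 of 192 cases, with a median of 22.8 TPM. Of the mitochondrial ribosomal proteins, the 33 rows without an RNA row had a median of 36.2 TPM, against 33.2 TPM for the 32 with one. Of selenoproteins, 3 of 9 lacked an RNA row, led by Selk at 165 and 173 TPM, and both listed circadian clock rows did so, Cry1 at 11.1 and 9.74 TPM and Per1 at 3.78 and 3.68 TPM. Olfactory and vomeronasal receptors had 0 rows in the table. After the histones, the cytosolic ribosomal proteins had the highest family median. Their 8 rows without an RNA row had a median of 542 TPM, against 558 TPM for the 70 with one.

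Rpl41, a ribosomal protein with one of the shortest reading frames known in mammals, was the highest of those 8. Its 75-base coding sequence is printed in full to show how short the counted region is, and capitals mark the start codon.
Rpl41: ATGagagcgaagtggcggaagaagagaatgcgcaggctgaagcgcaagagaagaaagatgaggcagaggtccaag
The row had 2354 TPM in library 1 and 1541 TPM in library 2, from 1448 and 694 recovered reads. Rpl37 had 905 and 856 TPM and Rpl39 850 and 834 TPM, and both differed less between the libraries than Rpl41 did.

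The 2 libraries ranked the rows without an RNA row much alike. Across these 3308 genes, Pearson's r was 0.991 on the log2(TPM + 1) scale and Spearman's rho 0.985, against 0.994 and 0.991 across the 2942 rows with an RNA row. These are correlations across genes, which are not independent replicates, so no p is given. The median absolute gap between libraries was 0.158 on the log2 scale for rows without and 0.138 for rows with an RNA row. A gap over 1.5-fold was found in 109 rows without an RNA row (3.30%), against 36 rows with one (1.22%) and 2.32% of all rows. Of the 109, 86 were higher in library 2 and 23 in library 1. By level, between 100 and 1000 TPM the median gap was 0.170 for 346 rows without and 0.131 for 732 rows with an RNA row. Under 10 TPM it was 0.162 for rows without and 0.126 for rows with an RNA row. The other bins of level lay closer. The medians were 0.164 and 0.145 from 10 to 20 TPM, 0.144 and 0.134 from 20 to 50 TPM, and 0.156 and 0.143 from 50 to 100 TPM. Above 1000 TPM they were nearly equal, at 0.140 and 0.137.

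A gap over 2-fold was found in 9 rows without an RNA row (0.272%), against 2 rows with one and 0.176% of all rows, and 3 of the 9 had a mean under 10 TPM. The 8 largest gaps among rows of at least 10 TPM are given here, of which the last 2, Pdpn and Tnfrsf9, were 1.96-fold and 1.91-fold. Il12b differed most, 5.66-fold, with 55 recovered reads in library 1 and 228 in library 2. The 2 membrane proteins Tmem176a (33.5 and 79.8 TPM) and Tmem176b (50.9 and 108 TPM), whose genes are neighbours, were both higher in library 2, as was 1810022K09Rik (32.7 and 67.2 TPM). The cyclin Ccnd1 (59.9 and 27.0 TPM), 1100001G20Rik (966 and 480 TPM), the mucin-type glycoprotein Pdpn (128 and 65.4 TPM) and the costimulatory receptor Tnfrsf9 (84.5 and 44.2 TPM) were higher in library 1. These 8 shared 0% of their windows with other rows. Among other rows with gaps over 1.5-fold were mt-Nd4, a subunit of respiratory complex I and the 1 listed gene of the mitochondrial genome, at 225 and 398 TPM, Ear11, a ribonuclease of the eosinophil-associated family, at 394 and 712 TPM, and the platelet chemokine Ppbp, at 71.8 and 39.6 TPM. Summed neutrophil markers were higher in library 1 and summed mast cell, basophil and eosinophil markers in library 2, but the sum of that group was carried by the Ear rows, while the eosinophil granule genes Prg2 (363 and 272 TPM) and Epx (73.9 and 39.9 TPM) were higher in library 1. The 2 listed of 15 erythroid and megakaryocyte markers, Pf4 and Ppbp, summed to 679 TPM in library 1 and 355 TPM in library 2. The part of cell composition in these gaps was not tested.

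**Figure D4:**
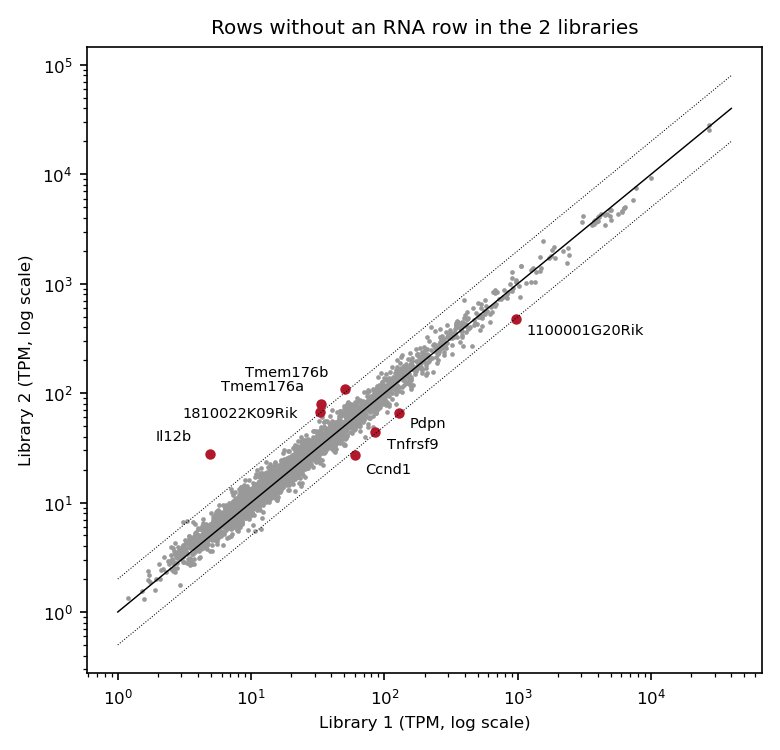
Footprint level in library 1 against library 2, both in TPM on log scales, for the 3308 rows without an RNA row. The solid line marks equal levels and dotted lines 2-fold gaps; the 8 named red points have the largest gaps among rows with a mean of at least 10 TPM, and Il12b lies farthest from the line.

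Within the table, footprint level fell with the length of the coding sequence. Across the 3250 rows without an RNA row that have a coding sequence, Spearman's rho of level with length was -0.73, against -0.54 across 2922 rows with an RNA row. A lower limit on reads, described next, builds a fall with length into both values. How much of either rho, or of their difference, comes from that limit was not tested. The median coding length was 1504.5 bases for rows without and 1345.5 bases for rows with an RNA row. Rows without an RNA row of 300 to 600 bases had a median of 82.4 TPM and those of at least 2400 bases 7.89 TPM. For rows with an RNA row the values were 132 and 19.8 TPM. In each of the 5 length classes compared, the rows without an RNA row had the lower median.

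The lower edge of this relation follows a fixed number of reads. Read numbers could be recovered from the values for 1411 rows without an RNA row (42.7%), and the number of rows stepped up at 257 reads summed over both libraries. Of the 1411 rows, 1 had fewer than 257 reads and another 151 had between 257 and 300. The median was 569 summed reads for rows without and 1150 for rows with an RNA row. Rows without an RNA row had medians of 317 reads in library 1 and 248 in library 2, against 658 and 494 reads for rows with one. At 257 reads, a coding sequence of 1000 bases had 13.3 TPM and one of 3000 bases 4.38 TPM. A short gene could thus rarely enter the table at a low level. Some rows without an RNA row did lie lower, down to 11.6 TPM under 300 bases and 5.03 TPM from 300 to 600 bases. The correlations with length, and medians over rows of differing length, are read with this limit on reads. Genes left out of the table were not analysed here. Gaps between the libraries were on average larger than counting error. Their mean square was 9.64 times that of counting error for rows without and 10.5 times for rows with an RNA row. Of the rows without an RNA row 64.0% lay within 2 counting errors, against 58.1% of those with one.

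**Figure D5:**
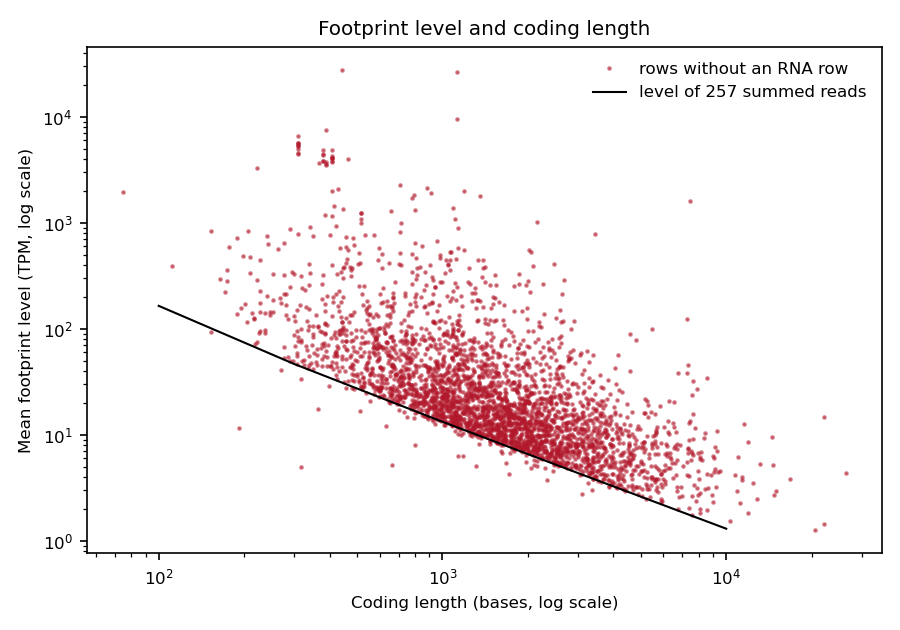
Mean footprint level in TPM against coding length in bases, both on log scales, for the 3250 rows without an RNA row that have a coding sequence. The black line marks the level that 257 reads summed over both libraries correspond to, 13.3 TPM at 1000 bases, and few rows lie below it.

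Start regions were alike in base composition. Of the rows without an RNA row, 2641 matched a promoter in the RefSeq table (GRCm38.p6, 250 bases before to 50 after the start), with a median GC content of 61.3%, against 61.0% for 2378 rows with an RNA row. The motif TATAAA, searched on both strands, was present in 186 of the 2641 (7.04%), against 158 of the 2378 (6.64%) and 14.2% of all promoters of the table. Of the 80 promoters that matched among the 100 highest non-histone rows without an RNA row, 19 (23.8%) held it. The highest rows with an RNA row were not examined in this way, so this share has no counterpart of like level. By chromosome, leaving out the mitochondrial genome with its 1 row, the share of rows without an RNA row lay between 46.5% and 56.8%, beside 52.9% overall.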

How the data were processed

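Footprint levels of 2 libraries were deposited by the authors for 6250 gene rows and taken as TPM, since each column sums to 1000000 and the values were per coding length. Per the submitters' processing notes, alignment used Bowtie2 and TopHat2 and the genome was mm9. The counting method, the treatment of reads that fit several genes, and the row selection are not given in the sources used here. The RNA table, also deposited in TPM by the authors, supplied names only.

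A row was a member when none of its semicolon-separated names was a name in the RNA table. Medians were taken of log2(TPM + 1) with a pseudocount of 1 and no filter on low values, and errors are SDs over the 2 libraries. Coding sequences came from GENCODE M21 (GRCm38), promoters from RefSeq (GRCm38.p6), matched by symbol for 3250 and 2641 member rows. No coordinates are given, as the builds differ. Shared windows are 28-base stretches of a coding sequence that also occur in that of another row.

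Read numbers were recovered from the values. The ratio of the libraries was a ratio of whole numbers, within 2e-09 and with denominators up to 3000, in 5964 rows (95.4%), and the length used was the coding length less 21 bases. Reads were accepted where a single coding length gave whole numbers, in 2756 rows (44.1%). In those rows library 1 had 1.35 times the reads of library 2. The absolute scale is inferred. The step was tested on simulated data in which each row had a single known coding length and the 21 bases were put in. Rows with several or wrong annotated lengths were not simulated. Counting errors cover sampling of reads only, and PCR copies are not independent molecules.

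The 25 lists and marker lists and 15 families were written from general knowledge. The members and lists were chosen with earlier results of these data known, so they support nothing by themselves. Named are the 25 highest rows, the top 3 of each list, the highest of each family, the 8 largest gaps between libraries among rows of at least 10 TPM, and a fixed set of inducible genes; not all are printed, and 1 gene of the chosen lists is not reported here. Other genes named were chosen after their values were seen. Analyses used Python 3.11.15, pandas 2.3.3 and scipy 1.17.1, and figures matplotlib 3.10.9. The closing section gives the alternatives tried.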

Additional observations from a re-analysis of the deposited data

How the results depend on the processing

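With a single group of 2 libraries no value has a test, so an alternative can move a value but cannot change a call. 0 values changed sign. No paired analysis was possible because the 2 footprint libraries form 1 group and no comparison between groups of samples is made.

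Leaving out one library at a time gave a median log2 level of 4.32 to 4.40 for rows without and 5.46 to 5.52 for rows with an RNA row, and a difference of -1.14 to -1.12. The share of the library held by rows without an RNA row was 39.0% to 39.8%, the rows of at least 10 TPM numbered 2471 to 2540 and those of at least 100 TPM 397 to 421. Of 30 lists and families, 21 to 22 had a median above that of all rows without an RNA row, and the correlation with length was -0.73 to -0.72.

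Leaving out rows with several names gave medians of 4.45 for rows without and 5.54 for rows with an RNA row, a difference of -1.09 and a share of 40.2%. A pseudocount of 0.1 gave a median of 4.30 for rows without an RNA row and a difference of -1.16. A pseudocount of 5 gave 4.62, 5.61 and -0.99, and brought the difference of the gaps between libraries to 0.0025, against 0.0202 with a pseudocount of 1; a larger pseudocount shrinks gaps of low rows by construction. Without the 10 highest rows the share was 32.3%. Of the alternatives chosen after seeing the data, leaving out rows that share over 50% of their windows gave a difference of -1.15 and a share of 32.2%, and leaving out histones a share of 32.2% and a correlation with length of -0.72. A minimum of 1 TPM removed no row. Of the recomputed values for single genes and lists, 277 moved by less than the spread between libraries and 72 by more. These counts do not measure stability, because many of the values could not have moved by more. For a single gene, the level in either library always differs from the mean of the libraries by less than their SD. The minimum of 1 TPM left every list as it was, and leaving out histones changed no other list. The recovered reads place the lower edge of the table near 257 summed reads. Whether depth or the selection of rows set that edge was not tested. Genes left out of the table are not described.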

Other observations

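Among the 40 rows without an RNA row that differed most between the libraries, at a mean of at least 10 TPM, 31 were higher in library 2, and 63.1% of all rows without an RNA row were. Several of the 31 encode proteins of DNA replication and mitosis. The chromatin remodeller Hells had 7.05 TPM in library 1 and 13.4 TPM in library 2, the polymerase subunit Pola1 8.35 and 14.0 TPM, the primase Prim1 8.33 and 13.8 TPM, the replication licensing factor Cdc6 (listed with cdc6) 10.97 and 18.1 TPM, the cyclin Ccne2 17.6 and 30.2 TPM and the mitotic kinase Bub1 8.18 and 13.2 TPM. On the side of library 1 were the cyclin Ccnd1, at 59.9 and 27.0 TPM, Cdkn1a, at 455 and 269 TPM, and Zmat3, at 21.4 and 12.7 TPM. Of the 36 cell cycle rows, 26 were higher in library 2, beside 2088 of all 3308 rows without an RNA row, with a median log2 difference of 0.14, library 2 minus library 1, beside 0.08 over all rows without an RNA row. These genes were picked after their values were seen, and no cause was tested.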
